A study of Mus musculus with 4 samples.

Results

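The transcriptional coactivators YAP (*Yap1*) and TAZ (*Wwtr1*), their 4 DNA-binding partners *Tead1* to *Tead4* and the direct targets *Ctgf*, *Cyr61*, *Ankrd1* and *Amotl2* were examined in hair follicle stem cells (HF-SCs), the quiescent cells of the bulge. These 10 genes were listed by name, and those with an authors' mean normalized count above 0 were kept, which left 9 of the 17044 genes with such a mean. All 6 regulators and 3 of the 4 targets were kept, and *Ankrd1* was at 0. The RNA came from adult mouse back skin at postnatal day 44, with 2 control libraries and 2 libraries of mice in which *miR-205* had been induced. The induced mice carried a tetracycline-responsive *miR-205* transgene switched on through a *Krt14*-driven transactivator, and they received doxycycline chow from postnatal day 42, that is, for 2 d. The labels call the control mice untreated, whereas the protocol has control and induced mice alike on doxycycline, and it gives all of them a *Krt14-H2BGFP* allele. The strain is labelled C57BL/6, and the transgene was made by injection into FVB mice. Several transgenic lines existed, and which of them gave these libraries was not stated, nor whether control mice carried the transgene or the transactivator. The sort took live cells high in H2BGFP, integrin α6 and CD34 and without Sca1.

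YAP and TAZ have no DNA-binding domain of their own and act through TEAD proteins. In the Hippo pathway a kinase cassette phosphorylates them, which keeps them in the cytoplasm, and when they are not phosphorylated they enter the nucleus and switch on TEAD target genes. Cell stretch, spreading and actomyosin tension are known to favor their nuclear entry. The study followed nuclear YAP as a mechanosensitive readout in the bulge and in the hair germ, the neighboring progenitor cluster. In hair germ cells it reported the opposite relation, an inverse correlation of cortical filamentous actin with nuclear YAP.

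Each level below is the authors' mean over all 4 libraries, control and induced together, of read counts divided by the size factor of the library. No value for a single library was used, so the spread between libraries is not known here and no difference between control and induced cells was tested. The lowest means fall on sums of whole reads, and from their steps the 4 libraries had size factors of 1.24, 1.18, 0.966 and 0.716. These depths were not assigned to groups, and the deepest library had 1.73 times the depth of the shallowest. From these depths the fewest reads behind each mean follow, and the interval of a mean is a 95% Poisson interval at that number of reads. The interval of a ratio is the widest range that the intervals of both genes allow, and its coverage is not 95%. All intervals cover counting error only, since mice, sorts and PCR copies add spread that they do not hold.

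Markers of the sorted cells were abundant. The 11 hair follicle stem cell and basal keratinocyte markers had mean normalized counts from 1046 to 146090, with *Krt15* at 119883, *Cd34* at 14575 and *Lgr5* at 4432. Markers of other cell types were also detected, and the ranges of the fibroblast, myeloid and suprabasal markers overlapped that of the sorted cells. The 6 fibroblast markers lay between 39.5 and 5186 (highest *Col1a1*), the 6 myeloid markers between 62.3 and 2744 (highest *Cd74*), the 4 suprabasal markers with a value between 116 and 7246 (highest *Krt10*), and the 5 melanocyte markers between 9.77 and 498 (highest *Dct*). The 6 endothelial markers did not exceed 57.6 (*Vwf*), the 6 mural cell markers did not exceed 241 (*Mcam*), and the 6 skeletal muscle markers did not exceed 6.94 (*Mylpf*), with *Myh4* at 0. *Flg* was not analysed here. The part of these cells in the levels of the YAP pathway genes was not tested, and in bulk RNA the number of cells of a type and the RNA per cell cannot be told apart. The row for *Mir205* had a mean of 8.18, and as a mean over all 4 libraries it does not check the induction.

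The coactivators were well expressed. *Yap1* had a mean normalized count of 2781 (counting interval 2720.1 to 2843), which placed it at percentile 95.2 of the 17044 genes. *Wwtr1*, which encodes the YAP paralog TAZ, had a mean of 1744 (1695 to 1793) at percentile 92.1. To set genes of different length side by side, each mean was divided by the length of all annotated exons of the gene. Per kb of exon *Wwtr1* stood at 365 and *Yap1* at 300.4, so that *Yap1* RNA was 0.823 times that of *Wwtr1* (0.783 to 0.866 by counting error). This order rests on the length used. *Yap1* has 9257 bases of annotated exon over 10 transcripts, but 5282 bases in the longest of them, and per kb of the longest transcript *Yap1* was the higher of the pair, at 526 against 371 for *Wwtr1*. *Yap1* was also the higher per kb of coding sequence, at 1899 against 1286. Which of the coactivators was higher per kb was therefore not settled by these data.

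All 4 TEAD paralogs were detected. *Tead1* had a mean normalized count of 1237 (1197 to 1279) at percentile 88.5, and *Tead3* had 1095 (1057 to 1134) at percentile 86.8. *Tead4* had 452 (428 to 477) at percentile 72.9. *Tead2* had the lowest mean of the 6 regulators, 320 (299 to 341) at percentile 66.8, and its counting interval was the widest in relative terms, with a half-width of 6.53%.

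Per kb of exon the order of the TEADs changed, because the exons of *Tead1* sum to 11235 bases and those of *Tead3* to 4398. *Tead3* led at 249, followed by *Tead4* at 126, *Tead1* at 110 and *Tead2* at 68.5. *Tead3* accounted for 45.0% of the summed TEAD level per kb, *Tead4* for 22.7%, *Tead1* for 19.9% and *Tead2* for 12.4%. With the longest transcript *Tead3* again took the largest share, 46.6%. With the coding length it did not. *Tead1* then took 41.3% and *Tead3* took 32.8%. Most of the annotated *Tead1* message is a 3′UTR of 8145 bases, and where the cells end this transcript was not measured. *Tead2* took the smallest share with every length, from 10.5% to 13.8%. Summed over the paralogs, the level per kb of exon was 665 for the coactivators and 553 for the TEADs, a ratio of 1.20, and the ratio was 1.31 with the longest transcript and 1.39 with the coding length.

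The targets spanned a far wider range than the regulators. *Cyr61*, a secreted matricellular protein of the CCN family, had a mean normalized count of 70488 (70181 to 70796). It ranked 13 among the 17044 genes, between *Dsp* at 86652 and *Dst* at 59882, and alone made up 0.539% of the sum of all means. Per kb of exon it stood at 34757 and ranked 6 among the 16383 genes with a gene model. *Ctgf*, also a matricellular CCN protein and widely used as a readout of YAP activity, had a mean of 7509 (7409 to 7610.2), ranked 241 and stood at 3016 per kb of exon. *Cyr61* RNA per kb of exon was therefore 11.5 times that of *Ctgf* (11.3 to 11.7 by counting error), and 8.62 times per kb of coding sequence. Both genes have compact models, with 2028 exon bases for *Cyr61* and 2490 for *Ctgf*.

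*Cyr61* is also an immediate early gene, and others of that class were among the most abundant RNAs of these libraries. *Fosb* had a mean normalized count of 89691, *Atf3* 51215, *Fos* 49376, *Jun* 36481 and *Egr1* 35524. The 10 that were searched ranged from 6542 (*Ier2*) to 89691 (*Fosb*). These genes were chosen after their values were seen. The cells had been released from skin with collagenase and trypsin before the sort, and the part of this step in the level of *Cyr61* was not tested.

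*Amotl2*, a junctional angiomotin-like protein that binds YAP and is itself a YAP target, was not abundant in the way of the CCN genes. Its mean normalized count was 1354 (1311 to 1397) at percentile 89.6. Per kb of exon it stood at 215, which was 0.716 times *Yap1* (0.679 to 0.756), whereas *Ctgf* stood at 10.0 times *Yap1* (9.69 to 10.4) and *Cyr61* at 116 times *Yap1* (113 to 119). These intervals hold no error of the lengths, and the ratios to *Yap1* were smaller with the other lengths. With the longest transcript they were 0.581 for *Amotl2*, 5.94 for *Ctgf* and 66.0 for *Cyr61*, and with the coding length they were 0.295, 3.79 and 32.6. *Ankrd1*, which encodes a nuclear and sarcomeric ankyrin repeat protein best known from striated muscle, had a mean of 0. No read was counted for it in any of the 4 libraries. At 3 counts over all libraries this allows a mean of up to 1.05, or 0.593 per kb of exon, so that expression at or under this limit is not excluded.

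**Figure D1:**
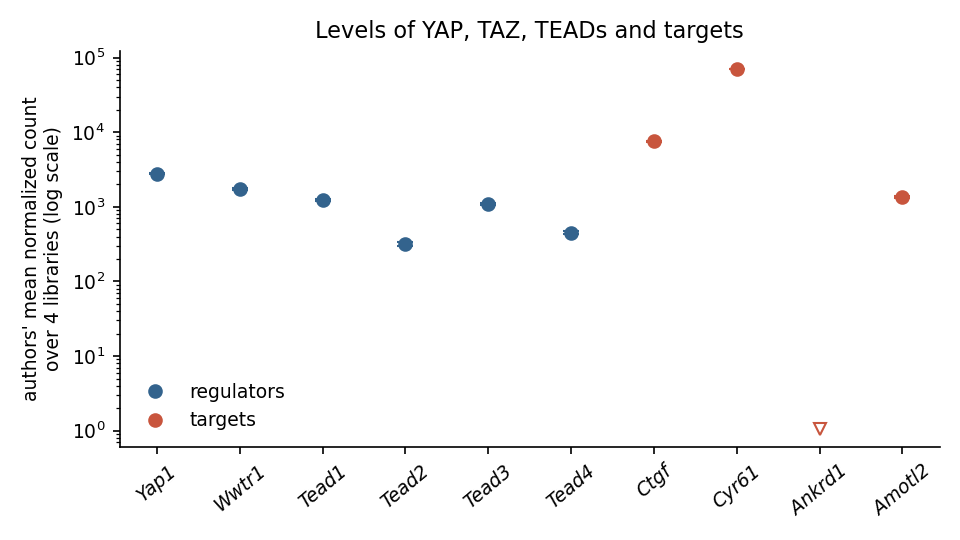
Authors' mean normalized count over the 4 libraries (log scale) for the 6 regulators (blue) and 4 targets (red), with 95% counting intervals as bars, mostly narrower than the points. The open triangle is the limit that a count of 0 allows for *Ankrd1*, 1.05, while *Cyr61* sits at 70488 and the regulators between 320 and 2781.

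Set side by side, the 6 regulators had a median of 187 per kb of exon and ranged from 68.5 to 365. The 4 targets had a median of 1615 and ranged from 0 to 34757. The genes are not replicates of anything, so this is a description without a test. The median of the targets also says little about any of them, since *Cyr61* and *Ctgf* stood above every regulator, *Amotl2* stood among the regulators, below *Tead3* and above *Tead4*, and *Ankrd1* stood below all of them. With the longest transcript *Amotl2* (306) and *Tead3* (318) had overlapping counting intervals. All other neighbors in the order had intervals that did not overlap, with each of the 3 lengths, although the order itself differed between lengths.

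**Figure D2:**
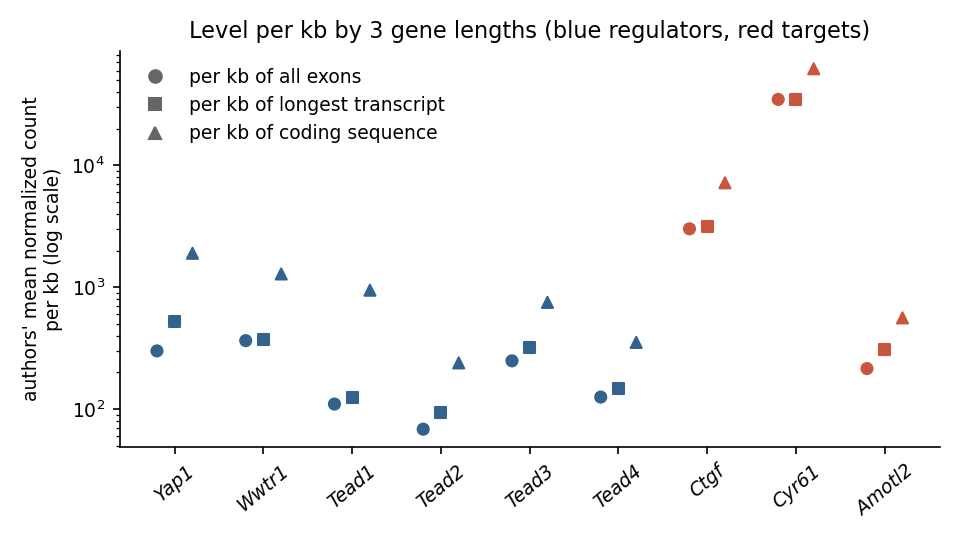
Authors' mean normalized count per kb (log scale) for the 9 genes with a mean above 0, per kb of all exons (circles), of the longest transcript (squares) and of coding sequence (triangles). *Cyr61* and *Ctgf* lead with every length, whereas the order of *Yap1* and *Wwtr1* and that of *Tead1* and *Tead3* depend on it.

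Against all genes, the 9 genes kept for a mean above 0 lay above the median of the distribution. The median over the 17044 genes was a mean normalized count of 117, with quartiles of 9.18 and 514, and the 9 genes lay between percentiles 66.8 and 99.9. The median level over the 16383 genes with a model was 39.5 per kb of exon. The lowest of the 9 genes, *Tead2*, was at 68.5.

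**Figure D3:**
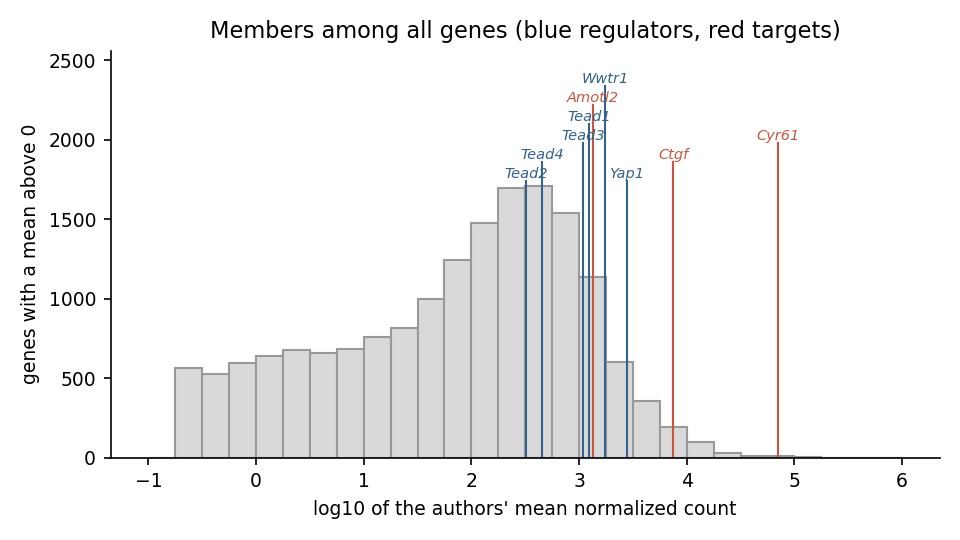
Number of genes (y axis) by log10 of the authors' mean normalized count (x axis) over the 17044 genes with a mean above 0, with vertical lines at the 6 regulators (blue) and the 3 detected targets (red). Every line lies to the right of the median of 117, and *Cyr61* lies in the thin upper tail.

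The upstream pathway genes searched were all detected. All 10 genes of the kinase cassette that phosphorylates YAP and TAZ had a mean normalized count over 50, with a median of 133 per kb of exon. Of the 17044 genes with a mean above 0, 10342 had a mean over 50. The highest was *Map4k4*, a kinase that acts in parallel to the MST kinases, at 619 per kb of exon (mean 3764). The lowest was *Mob1b*, an adaptor of the LATS kinases, at 38.7 (mean 423), which has a long gene model of 10927 exon bases. These places depend on the length. Per kb of coding sequence *Mob1b* stood at 637, above the list median of 449.5, *Mob1a* was the highest at 1081, ahead of *Map4k4* at 974, and the lowest was the MST kinase gene *Stk3* at 136, which also had the lowest mean, 202. The kinases that phosphorylate YAP directly, *Lats1* and *Lats2*, stood at 130.4 and 101 per kb of exon, both below *Yap1* and *Wwtr1*.

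The 8 junction and scaffold genes, which link the pathway to cell contacts, had a median of 303 per kb of exon. The atypical cadherin *Fat1* was the highest at 410 (mean 6055), but per kb of coding sequence it stood at 440, below the list median of 583, and *Ptpn14* was the highest at 1094. The angiomotins, which hold YAP at junctions, differed among themselves. *Amotl2* stood at 215 and *Amotl1* at 186 per kb of exon, and per kb of coding sequence at 560 and 635. *Amot* was the lowest gene of the list with both lengths, at 24.4 and 60.8 (mean 205).

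Of the 4 vestigial-like cofactors, which bind TEADs in place of YAP, only *Vgll3* and *Vgll4* were detected. *Vgll4*, known as a TEAD repressor, stood at 129.5 per kb of exon (mean 538), beside *Tead4* at 126. With the longest transcript *Vgll4* stood at 245 and *Tead4* at 147, and with the coding length at 625 and 353. *Vgll3* stood at 24.0 (mean 79.9). *Vgll1* and *Vgll2* had a mean of 0, which allows up to 1.05.

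A further 18 genes widely used as a YAP target signature had a median of 138 per kb of exon. Of them 17 had a mean over 50, as did 10342 of the 17044 genes with a mean above 0. None exceeded *Cyr61* or *Ctgf*, either in mean or per kb of exon. *Amotl2* was exceeded by 8 of the 18 per kb of exon. The highest of the list per kb was *Igfbp3*, a secreted binding protein of insulin-like growth factors, at 1137 per kb of exon (mean 3559), and the lowest was the forkhead factor *Foxf2* at 0.405 (mean 0.957). *Axl*, a receptor tyrosine kinase, stood at 557 and *Nt5e*, an ectonucleotidase, at 946. *Lats2* and *Ptpn14* are counted both here and above, because each is a target and an inhibitor of YAP.

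**Figure D4:**
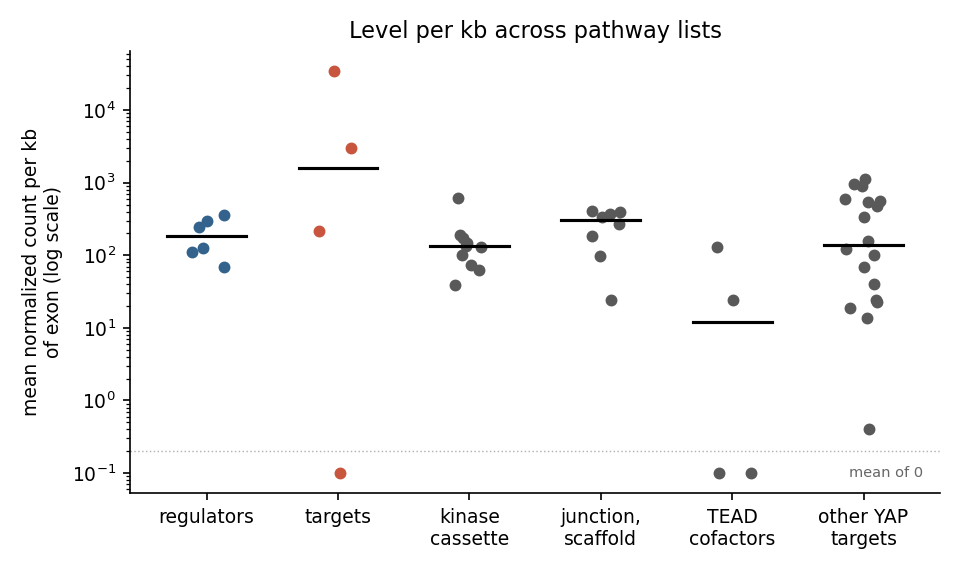
Authors' mean normalized count per kb of exon (log scale) for the 6 regulators, the 4 targets and the 4 pathway lists, with a point for each gene and black lines at the medians. Points under the dotted line have a mean of 0. *Cyr61* and *Ctgf* lie above every gene of the lists, and 2 of the 4 TEAD cofactors lie at 0.

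Because the induced RNA is a miRNA, the 3′UTRs of the 10 genes were searched for its seed match. A miRNA recognizes a message mainly by pairing of its bases 2 to 8, the seed. The mature *miR-205* of RefSeq (GRCm38.p6, chromosome 1, 193507503 to 193507524, minus strand) is shown because its seed, in capitals, defines the search, and the matching letters in a message are ATGAAGG.

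mmu-miR-205-5p: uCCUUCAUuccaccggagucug

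*Tead1* alone held such a match, at 2 places in the longest annotated 3′UTR. Both lie in the last exon, exon 13 of 13, on the plus strand of NCBIM37 chromosome 7. The first begins 2807 bases into the 3′UTR (120044981 to 120044987), and is followed by an A. The second begins 6756 bases into it (120048930 to 120048936). They are shown because they are the only matches in the group to the whole seed, bases 2 to 8, with the match in capitals.

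Tead1 first match: atacagagaccATGAAGGagtgctactta

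Tead1 second match: tatcttttaaaATGAAGGtttttgtattt

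Of the 9 detected genes, 1 thus held a match, which is 11.1%, and 10.96% of the 15327 detected genes with an annotated 3′UTR did. With the A after the match, 8 bases in all, 1 of the 9 genes held it, against 3.95% of the 15327. Long 3′UTRs hold more matches by their length. Among 129 genes whose 3′UTR was within 20% of that of *Tead1* in length, 43.4% held a 7-base match. The shortest annotated 3′UTR of *Tead1*, 735 bases long, held none. With 6 bases, which pair with bases 2 to 7, *Wwtr1*, *Tead2* and *Amotl2* also had a match, or 4 of 9 genes against 34.5% of all, and so did *Ankrd1*. In *Wwtr1*, *Tead2* and *Amotl2* a 6-base match was followed by an A, and in *Ankrd1* it was not. The share of all genes with a 6-base match and this A was not counted. *Yap1*, *Tead3*, *Tead4*, *Ctgf* and *Cyr61* had neither a 7-base nor a 6-base match. The paper nevertheless lists *Ctgf*, under its current symbol *Ccn2*, among the messages that its own capture of miRNA targets found bound by *miR-205*. A match is a run of letters and not a measured binding site, and no match says only that these letters are not in the annotated 3′UTR.

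**Figure D5:**
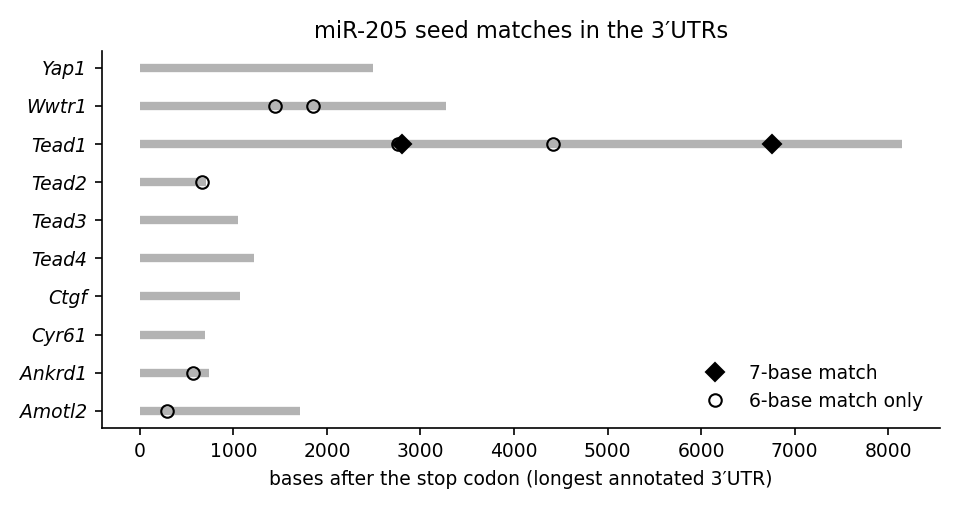
Longest annotated 3′UTR of each of the 10 genes as a bar, in bases after the stop codon. Filled diamonds are 7-base matches to the *miR-205* seed, and open circles are 6-base matches, whether or not an A follows. *Tead1* holds the only 7-base matches, in a 3′UTR of 8145 bases, and 5 of the genes hold no match of either length.

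Finally, promoters were searched for the core letters that TEAD proteins bind, GGAATG, or CATTCC on the other strand. The RefSeq windows run from 250 bases before to 50 after an annotated start (GRCm38.p6) and were found for 7 of the 10 genes, *Cyr61* under its current symbol *Ccn1*. Of these 7 genes, 6 held the letters. Over all 27025 genes with a window, 16.6% did. A gene was counted if any of its windows held the letters. *Wwtr1* had 2 windows and *Tead3* had 3, and the number of windows was not matched. No window was matched to *Tead1*, *Tead4* or *Ctgf*. The match of each of the 3 targets is shown with 12 flanking bases, since these genes are regarded as bound by TEADs, with the matching letters in capitals and each window written along the strand of its gene.

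Cyr61, chr3:145650071-145650100, minus strand: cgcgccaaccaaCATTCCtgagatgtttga

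Amotl2, chr9:102717727-102717756, plus strand: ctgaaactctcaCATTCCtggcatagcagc

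Ankrd1 first match, chr19:36120037-36120066, minus strand: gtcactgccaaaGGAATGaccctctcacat

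Ankrd1 second match, chr19:36119950-36119979, minus strand: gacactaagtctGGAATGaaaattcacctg

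The match begins 103 bases before the start of *Cyr61* and 65 before that of *Amotl2*. *Ankrd1* had 2 matches, 210 and 123 bases before its start, so the gene of the group at a mean of 0 held more than *Cyr61* or *Amotl2*. Among the regulators, *Yap1* and *Wwtr1* each had 1 match, 141 and 136 bases before a start, and are shown because the coactivators are themselves regulators.

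Yap1, chr9:8004720-8004749, minus strand: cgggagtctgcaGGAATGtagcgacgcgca

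Wwtr1, chr3:57576029-57576058, minus strand: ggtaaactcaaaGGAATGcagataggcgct

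*Tead3* had 4 matches over 3 windows that belong to neighboring starts, and *Tead2* had none. Among genes with the letters, *Cyr61* had a mean normalized count of 70488, *Amotl2* of 1354 and *Ankrd1* of 0, and *Tead2*, without them, had 320. With the letters in 6 of the 7 genes, a relation of presence to level could not be tested. Binding was not measured.

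On NCBIM37 with the GENCODE vM1 annotation, *Yap1* lies on chromosome 9 (7931999 to 8004596, minus strand) and *Wwtr1* on chromosome 3 (57259571 to 57379832, minus). *Tead1* and *Tead2* lie on the plus strand of chromosome 7 (119822832 to 120050319 and 52471123 to 52489005), *Tead3* on chromosome 17 (28468616 to 28487750, minus) and *Tead4* on chromosome 6 (128174306 to 128250841, minus). Of the targets, *Ctgf* lies on chromosome 10 (24315248 to 24318489, plus), *Cyr61* on chromosome 3 (145309935 to 145312949, minus), *Amotl2* on chromosome 9 (102619002 to 102635748, plus) and *Ankrd1* on chromosome 19 (36186455 to 36194334, minus). The labels name mm10 as the build of the alignments, so these places and the exon lengths come from another annotation than the counts.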

How the data were processed

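The samples were FACS-purified HF-SCs, as 2 control and 2 *miR-205*-induced libraries. Per the labels and the methods, reads were aligned with HISAT2 2.1.0, converted with SAMtools 1.3.1 and counted with HTSeq, and the authors compared groups with DESeq2; the annotation is not given in the sources used here. The authors deposited 1 table of 24421 genes. The deposited mean column is a signal, the mean over all 4 libraries of read counts that the authors divided by size factors. The other 5 columns hold the authors' comparison (log2 fold change, its standard error, Wald statistic, p-value and adjusted p-value) and were not used. Columns of per-sample values numbered 0. No test between groups was therefore run.

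Relative depths were read from means of single reads. All 2459 means under 2 were sums of whole reads within 1e-06, and the step was tested on simulated data, where 5 of 5 runs over 24421 genes gave back the depths. Lengths came from GENCODE vM1 and matched 22264 genes by symbol or RefSeq synonym. The genes named are the 10 members, the highest and lowest of each list, genes at 0 and the leading markers; *Lats1*, *Lats2*, *Stk3*, *Mob1a*, *Ptpn14*, the angiomotins, *Vgll3*, *Vgll4*, *Axl*, *Nt5e* and the immediate early genes were picked after their values were seen. Members and lists were chosen with earlier results of these data known. The work used scipy 1.17.1, pandas 2.3.3 and numpy 2.4.6 under Python 3.11.15, with matplotlib 3.10.9 for plots.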

Additional observations from a re-analysis of the deposited data

How the results depend on the processing

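No paired analysis was possible because only a mean over all 4 libraries was used, and for the same reason leaving out a replicate was not run. Lengths from RefSeq proteins were not run, and the coding length of the annotation was added after the data were seen, as was the setting without *Ankrd1*. Counting error limits *Tead2* and *Tead4* most.

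With the longest transcript the median per kb was 232.6 for the regulators, 1715 for the targets, 150.4 for the kinase cassette, 315.7 for junction and scaffold genes and 148.8 for the other YAP targets. With the coding length the medians were 848.6, 3877, 449.5, 583.3 and 226.2 in the same order, and 40.96 for the TEAD cofactors. Without *Ankrd1* the targets had a median of 3016. Over genes with a mean over 50 the TEAD cofactors had a median of 76.79 and the other YAP targets 155.7. With the longest transcript *Tead1* took 18.17% of the TEAD sum and *Tead2* 13.77%, and *Yap1* 58.65% and *Wwtr1* 41.35% of their sum, in place of 45.2% and 54.8%. With the coding length the shares were 41.31%, 10.46%, 32.82% and 15.41% for *Tead1* to *Tead4*, and 59.63% and 40.37% for *Yap1* and *Wwtr1*. A 6-base match was held by 4 genes and an 8-base match by 1, and with the shortest 3′UTR 0 genes held a 7-base match. Other lengths change only the divisor. The percentiles of all 9 genes were lower when genes with a mean of 50 or 200 and less were left out, and *Tead2* went from 66.8 to 45.2 and 19.7.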

Other observations

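The CCN family has 6 genes, and *Cyr61* and *Ctgf* were the 2 with a mean normalized count over 50. The other four, searched after the values of *Cyr61* and *Ctgf* had been seen, were close to absent, with means of 7.12 for *Wisp2*, 6.38 for *Nov*, 5.25 for *Wisp1* and 1.01 for *Wisp3*. Among the pathway lists, *Taok1* of the 10 kinase cassette genes held the 7-base *miR-205* seed match. So did *Amot* and *Wwc1* of the 8 junction and scaffold genes, and *Vgll3* of the 4 TEAD cofactors, of which 2 were detected. *Axl* and *Dock5* of the 18 other YAP targets held it as well. Over all 15327 detected genes with an annotated 3′UTR, 10.96% held a match, and 3′UTR length was not matched here. The paper's capture of bound messages lists *Taok1*, and also *Stk4*, *Map4k4*, *Frmd6* and *Nt5e*, which held no 7-base match here. Levels per kb of exon of the genes with a match ran from 23.1 (*Dock5*) to 557 (*Axl*). Whether match and level are related was not tested.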
